A study of Homo sapiens with 12 samples.

Results

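Cadherins and protocadherins are cell surface proteins built from repeated extracellular cadherin domains. The genes described here were chosen by name and biotype from the gene count table, as protein-coding genes called CDH and a number or starting with PCDH. The rule found 89 of 58735 genes, of which 36 lie outside the protocadherin clusters, 15 belong to PCDHA, 16 to PCDHB and 22 to PCDHG. The 53 clustered genes are described apart because their exons overlap. The cells were C4.2B, a castration-resistant prostate cancer line derived from LNCaP. Libraries of polyA RNA were made from 4 arms with 3 libraries each, lettered A to C, which were DMSO, AKTi (ipatasertib, 0.25 µM), EZH2i (tazemetostat, 1 µM) and the combination of both inhibitors. Treatment lasted 24 hours, and EZH2i arms had 6 days of tazemetostat before it. Every arm was switched to medium with charcoal-stripped serum at the start of the 24 hours. By the study's methods, plates were seeded in triplicate after the tazemetostat pretreatment, and no source gives the plates separate passages or days, so the p-values measure the spread between plates of a single cell line.

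Classical cadherins bind the same cadherin on the next cell and are held to actin inside the cell by catenins, and E-cadherin (CDH1) is the main one of luminal prostate epithelium. Nonclustered delta protocadherins carry their own promoters. The PCDHA, PCDHB and PCDHG genes stand in a row on chromosome 5, where each variable exon has a promoter of its own, and PCDHA and PCDHG variable exons are spliced to constant exons that the cluster shares. Many of these promoters hold a conserved sequence element with the core letters CGCT, and neurons switch single promoters on in differing sets. EZH2 is the enzyme of Polycomb repressive complex 2 that methylates lysine 27 of histone H3, a mark found at silent genes, and AKT is a kinase of growth and survival signalling.

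Promoter sequences are shown first because each variable exon of the clusters has its own, and the choice of members did not use them. RefSeq promoters (GRCh38.p14, 250 bases before to 50 bases after a start) were matched by symbol for 70 of the 89 genes. The RefSeq start nearest to the start of the counted gene was used, and for some genes it lay far away. Its position relative to that start was 246995 bases in CDH4, -82564 in CDH9, -11539 in PCDH12, -9619 in PCDH1 and 2476 in PCDHGA8. The letters GGTGGCGCT, searched on both strands and picked after seeing these promoters, were in 13 of 14 PCDHB promoters, against 0.501% of all 35116 promoters of the table. The letters GATGTCGCT, picked the same way, were in 9 of 13 PCDHA promoters, against 0.105% of all. Both contain the core CGCT, which alone was in 12 of 13 PCDHA, 14 of 14 PCDHB, 20 of 20 PCDHG and 22 of 23 other member promoters, against 70% of all promoters, so the core by itself does not set the clusters apart from the other members. In the stretches below, written 5′ to 3′ on the plus strand, capitals mark the 9 letters where present and otherwise the CGCT closest to the 3′ end of the promoter.
PCDHB2: agagacgcggGGTGGCGCTgcagccttag
PCDHB5: taggacgcctGGTGGCGCTgcaggctaag
PCDHB8: gaggacccgtGGTGGCGCTgcaggataag
PCDHB13: gaggacgcgtGGTGGCGCTgcaggataag
PCDHB14: ggagacacatGGTGGCGCTacaggataag
PCDHB1: ggagttgagtCGCTcaatgcaaat
PCDHA1: ttggccacatGATGTCGCTgtacaccaca
PCDHA10: aaagccaccgGATGTCGCTgtcgtccaca
PCDHGA8: ctgtaagcgcCGCTgttcacctac
PCDHGA10: ctctgagcgcCGCTgttcacctac
PCDHGC3: ccaatgaagaCGCTggagatcggg

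The PCDHB stretches lie at chr5:141094545-141094573 (PCDHB2), chr5:141135180-141135208 (PCDHB5), chr5:141177778-141177806 (PCDHB8), chr5:141213866-141213894 (PCDHB13) and chr5:141223264-141223292 (PCDHB14). PCDHB1, the single PCDHB promoter in the table without the 9 letters, is shown at chr5:141051280-141051303. The others lie at chr5:140786087-140786115 (PCDHA1), chr5:140855842-140855870 (PCDHA10), chr5:141392574-141392597 (PCDHGA8), chr5:141412937-141412960 (PCDHGA10) and chr5:141475905-141475928 (PCDHGC3). The 9 letters of PCDHB promoters began at positions from -84 in PCDHB4 to -2 in PCDHB8 relative to the RefSeq start.

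Cluster promoters held few CG dinucleotides, with a median of 7 of 300 bases in PCDHA, 7.5 in PCDHB and 7 in PCDHG, against 12 in the 23 other members and 14 over all promoters. Promoters of 2 members that rose in EZH2i are shown whole for contrast, PCDHB5 (chr5:141134956-141135255, plus strand), which has 6 CG dinucleotides, with the 9 letters in capitals and PCDH19 (chrX:100410224-100410523, minus strand) with its 26 CG dinucleotides in capitals. The E-box letters CAGGTG, on either strand, were in 6 of the 70 member promoters and in 20.6% of all. CDH1, CDH3, CDH13 and CDH24 were not among the 70, so these shares say nothing of their promoters.
PCDHB5: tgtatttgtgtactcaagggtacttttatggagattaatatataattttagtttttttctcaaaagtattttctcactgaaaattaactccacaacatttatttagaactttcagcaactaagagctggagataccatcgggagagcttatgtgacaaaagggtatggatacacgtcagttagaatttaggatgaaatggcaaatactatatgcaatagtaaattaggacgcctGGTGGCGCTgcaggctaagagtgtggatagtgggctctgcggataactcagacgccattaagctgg
PCDH19: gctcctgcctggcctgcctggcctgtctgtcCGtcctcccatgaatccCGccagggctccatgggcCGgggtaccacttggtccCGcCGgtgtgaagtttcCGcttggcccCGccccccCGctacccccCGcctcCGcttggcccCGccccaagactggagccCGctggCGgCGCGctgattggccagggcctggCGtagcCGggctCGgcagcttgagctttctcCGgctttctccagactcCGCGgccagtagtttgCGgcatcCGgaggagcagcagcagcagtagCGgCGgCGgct

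Total counts ran from 14133755 to 22276417 per library. Values are given as CPM, counts per 1000000 of a library, scaled with the trimmed mean of M-values (TMM), and tests are edgeR's quasi-likelihood test fitted to 16646 genes that passed a filter on low counts, with Benjamini-Hochberg adjustment and a threshold of 0.05. In that fit 42.5% of genes were called in AKTi against DMSO, 64.1% in EZH2i against DMSO and 73.2% in the combination against DMSO, so a call by itself is a common event in these data. The 10 luminal prostate markers summed to between 3983 and 4118 CPM in DMSO, 6090 and 6281 CPM in AKTi, 6772 and 7004 CPM in EZH2i and 8747 and 8939 CPM in the combination. Against DMSO, 8 of them were called higher and 2 lower in AKTi, where 20.6% and 21.9% of all genes were. In EZH2i 7 were higher and 1 lower, against 32.6% and 31.5% of all genes. The combination had 8 higher and 2 lower, against 38% and 35.2%, so the sums do not stand for every marker. The 5 fibroblast markers summed to 4.36 to 6.99 CPM in DMSO, 4.26 to 6.39 CPM in AKTi, 15.6 to 18.0 CPM in EZH2i and 9.77 to 14.9 CPM in the combination, nearly all of it COL1A1, with COL1A2 and PDGFRA at 0 in DMSO and no library of any arm above 2 and 3 counts. The 5 endothelial markers summed to 2.54 to 3.39 CPM in DMSO, 3.75 to 4.55 CPM in AKTi, 5.69 to 6.89 CPM in EZH2i and 5.16 to 7.37 CPM in the combination, nearly all of it VWF, while PECAM1, KDR and TEK were at 0 in DMSO. The part of these markers in the results was not tested.

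E-cadherin was the leading member in every arm. As CPM divided by the gene length in kilobases (RPKM) its level in DMSO was 122 ± 6.12 (SD, n = 3), followed by PCDH1 at 6.92 ± 0.76, CDH3 at 2.34 ± 0.0461, CDH24 at 2.22 ± 0.0791 and PCDHGC3 at 1.02 ± 0.151. CDH3 and CDH24 lay close to each other in that order, and PCDH7 came next at 0.513 ± 0.106. CDH1 (ENSG00000039068, chr16:68737225-68835548 on hg38) stood at 725, 746 and 798 CPM in DMSO, 681, 728 and 707 CPM in AKTi, 850, 868 and 891 CPM in EZH2i and 755, 717 and 750 CPM in the combination. Every EZH2i library was above every library of the other arms. The log2 fold change of CDH1 against DMSO was 0.20 ± 0.05 (SE, adjusted p = 0.000827) in EZH2i, -0.10 ± 0.05 (adjusted p = 0.121) in AKTi and -0.03 ± 0.05 (adjusted p = 0.629) in the combination, and the difference of the combination from EZH2i alone was -0.23 ± 0.05 (adjusted p = 0.000304). As the libraries are bulk RNA, fewer cells of a kind and less RNA per cell cannot be told apart here or below.

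N-cadherin (CDH2), the cadherin of mesenchymal and neural cells, had a single read in the 12 libraries, in EZH2i A. A count of 0 over the 3 libraries of an arm allows up to 3 counts, so no difference in CDH2 was detectable at this depth. P-cadherin (CDH3), found in basal epithelium, stood at 14.9, 14.4 and 14.4 CPM in DMSO, 14.02, 13.9 and 14.7 CPM in AKTi, 13.3, 14.9 and 17.1 CPM in EZH2i and 11.4, 9.96 and 13.7 CPM in the combination. The combination lay below DMSO in each library, with a log2 fold change of -0.32 ± 0.12 (adjusted p = 0.021). This call was lost under 5 of 19 alternatives, scaling by library size alone or by the upper quartile among them, with a value as small as -0.12. CDH4 (R-cadherin) and CDH15 (M-cadherin) did not pass the test in any comparison, and CDH15 was within 1.45 to 3.29 CPM in all libraries.

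Type II classical cadherins, a subfamily known mostly from neural and mesenchymal tissue, had few or no reads. Of the 13, CDH24 and CDH8 passed the filter. CDH24 stood at 8.34, 8.03 and 8.62 CPM in DMSO, 7.30, 7.70 and 6.25 CPM in AKTi, 8.96, 6.65 and 6.51 CPM in EZH2i and 5.52, 5.18 and 3.44 CPM in the combination. The combination was below every other library, and the log2 fold change was -0.82 ± 0.18 against DMSO (adjusted p = 8.78e-05) and -0.63 ± 0.18 against EZH2i (adjusted p = 0.00334). CDH8 stood at 0.807, 1.25 and 1.29 CPM in DMSO and 2.63, 2.07 and 1.81 CPM in the combination, a rise of 0.95 ± 0.34 on the log2 scale (adjusted p = 0.0119). Without DMSO A the value was 0.76 (adjusted p = 0.0669) and without combination A it was 0.78 (adjusted p = 0.07).

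CDH26, a cadherin of epithelial cells that binds alpha integrins, and CDH13 (T-cadherin), which is anchored in the membrane by GPI and lacks the cytoplasmic tail, moved in opposite directions with ipatasertib. CDH26 (ENSG00000124215, chr20:59958427-60034011) stood at 2.15, 3.02 and 2.25 CPM in DMSO, 5.13, 2.94 and 4.58 CPM in AKTi, 6.08, 6.01 and 5.78 CPM in EZH2i and 11.3, 13.8 and 15.6 CPM in the combination. AKTi overlapped with DMSO in 1 library, and the 3 combination libraries were above all others. The log2 fold change of CDH26 against DMSO was 0.78 ± 0.22 (adjusted p = 0.00353) in AKTi, 1.28 ± 0.20 (adjusted p = 1.08e-06) in EZH2i and 2.46 ± 0.19 (adjusted p = 3.57e-14) in the combination, a 5.51-fold rise. CDH26 in the combination was above EZH2i alone by 1.18 ± 0.17 (adjusted p = 2.59e-07), while the interaction, the difference between the combined change and the sum of the separate changes, was 0.40 ± 0.28 (adjusted p = 0.305).

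CDH13 (ENSG00000140945, chr16:82626803-83800640) stood at 2.29, 1.84 and 1.68 CPM in DMSO, 1.23, 1.12 and 0.556 CPM in AKTi, 2.21, 1.93 and 1.83 CPM in EZH2i and 0.708, 0.806 and 1.21 CPM in the combination. Both arms with AKTi were below both arms without it, with no overlap. The log2 fold change was -0.99 ± 0.37 (adjusted p = 0.0291) in AKTi, 0.04 ± 0.33 (adjusted p = 0.919) in EZH2i and -1.09 ± 0.36 (adjusted p = 0.00733) in the combination. The call in AKTi was lost without DMSO A (-0.86, adjusted p = 0.11) and without AKTi C (-0.73, adjusted p = 0.154). In GENCODE v44, 21.4% of CDH13 exon bases lie opposite exons of CDH13-AS2, and the strand setting of the counting is not given in the sources used here, so reads of the antisense gene cannot be told apart from CDH13 reads there.

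**Figure D1:**
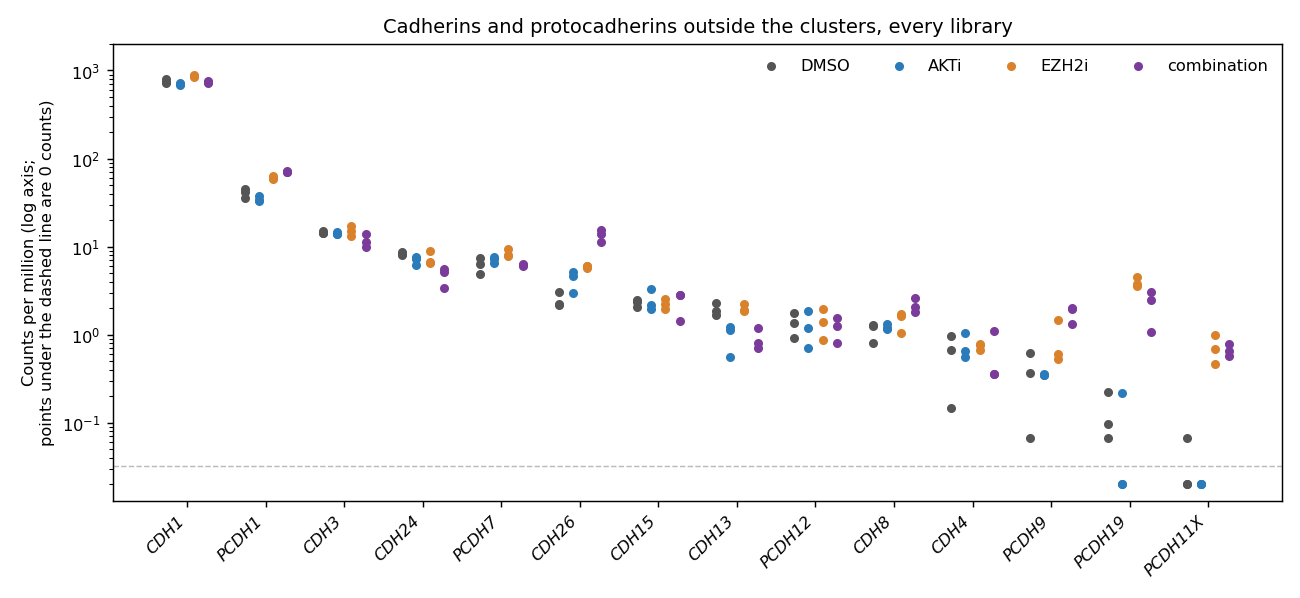
Level of the 14 members outside the clusters that passed the filter on low counts, in CPM on a log axis, with a point for each of the 3 libraries of each arm and genes ordered by their mean in DMSO. CDH1 lies between 681 and 891 in every library, CDH26 is highest in the combination, and PCDH19 and PCDH11X are at or near 0 in DMSO and AKTi but at 0.468 or more in every EZH2i and combination library.

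Among delta protocadherins, PCDH1, a junction protein of epithelia, was the most abundant. PCDH1 (ENSG00000156453, chr5:141853111-141879246) stood at 36.0, 44.9 and 41.5 CPM in DMSO, 34.2, 37.5 and 33.1 CPM in AKTi, 64.2, 58.5 and 60.8 CPM in EZH2i and 69.8, 71.9 and 71.2 CPM in the combination. EZH2i was above DMSO and AKTi, and the combination was above EZH2i, with no overlap. The log2 fold change of PCDH1 against DMSO was 0.58 ± 0.07 (adjusted p = 1.5e-08) in EZH2i and 0.80 ± 0.07 (adjusted p = 4.57e-12) in the combination. In AKTi alone it was -0.22 ± 0.08 (adjusted p = 0.0216), a call lost under 6 of 19 alternatives, including both other scalings. The interaction of PCDH1 was 0.44 ± 0.11 (adjusted p = 0.0017), so that ipatasertib went with a lower level alone and a higher level on top of EZH2i.

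PCDH19, a protein of neural circuits whose loss causes epilepsy in females, rose in both arms with EZH2i. PCDH19 (ENSG00000165194, chrX:100291644-100410273) had 1, 3 and 2 counts in DMSO, 3, 0 and 0 in AKTi, 57, 78 and 77 in EZH2i and 21, 43 and 51 in the combination. Its log2 fold change against DMSO was 4.94 ± 0.53 (adjusted p = 2.57e-10) in EZH2i, 30.6-fold, and 4.08 ± 0.56 (adjusted p = 4.67e-08) in the combination, 16.9-fold. Its level was lower in the combination (1.06, 2.47 and 3.07 CPM) than in EZH2i alone (3.81, 4.55 and 3.53 CPM), a difference of -0.86 ± 0.34 (adjusted p = 0.0356). PCDH11X had 1, 0 and 0 counts in DMSO, none in AKTi, 7, 17 and 15 in EZH2i and 13, 10 and 13 in the combination, a ratio of 35.7 (95% counting interval 6.04 to 1445) in EZH2i and 33.0 (5.56 to 1341) in the combination. PCDH11X has a nearly identical copy, PCDH11Y, so how reads were split between these genes is uncertain.

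PCDH7 and PCDH9, delta-1 protocadherins known from the nervous system, were each above DMSO in one arm with EZH2i. PCDH7 stood at 6.39, 7.51 and 4.93 CPM in DMSO, 7.66, 6.51 and 7.15 CPM in AKTi, 7.89, 9.45 and 7.98 CPM in EZH2i and 6.22, 6.33 and 6.09 CPM in the combination. It rose in EZH2i by 0.45 ± 0.16 (adjusted p = 0.0157), a call lost without DMSO C (0.28, adjusted p = 0.163) and without EZH2i B (0.36, adjusted p = 0.0861). It was at 0.01 ± 0.17 (adjusted p = 0.978) in the combination, and had an interaction of -0.64 ± 0.23 (adjusted p = 0.0358), not called under 8 of 18 alternatives. PCDH9 stood at 0.0672, 0.368 and 0.623 CPM in DMSO, 1.47, 0.525 and 0.596 CPM in EZH2i and 1.32, 1.96 and 1.99 CPM in the combination, with a log2 fold change of 2.20 ± 0.51 in the combination (adjusted p = 0.000242) and of 1.15 ± 0.55 in EZH2i (adjusted p = 0.0666). The difference between the combination and EZH2i in PCDH9 was 1.05 ± 0.45 (adjusted p = 0.0562). PCDH12, a vascular protocadherin, did not pass the test in any comparison.

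Of the 36 members outside the clusters, 14 passed the filter, and 3 of those did so with no DMSO library over the limit, so counts over all 32 with any read are given here instead. By libraries that do not overlap with DMSO, 12 of 32 were higher and 0 lower in EZH2i, where 19.4% of all genes were higher and 17% lower. In the combination 8 of 32 were higher and 3 lower, against 23% and 18.8% of all genes. In AKTi 0 of 32 were higher and 3 lower, against 13.1% and 14%. The share higher in the combination was close to that of all genes, and the other shares in the combination and AKTi were below those of all genes, with few members in each count. Among members that failed the filter, CDH10, a neural type II cadherin, had 4, 7 and 2 counts in EZH2i, none in DMSO or AKTi and 1, 1 and 0 in the combination, at least 3.97-fold higher in EZH2i than in DMSO. CDH19, a cadherin of Schwann cell precursors, had 1, 0 and 0 counts in DMSO and 5, 4 and 7 in EZH2i, a ratio of 14.6 (2.27 to 614). PCDH11Y had 0, 1 and 0 counts in DMSO, none in AKTi, 10, 7 and 11 in EZH2i and 15, 4 and 9 in the combination. Its ratio was 25.6 (4.24 to 1048) in EZH2i and 25.7 (4.25 to 1051) in the combination, with the split of reads with PCDH11X uncertain. For the rest, CDH2 aside, the highest count in any library was 8 for CDH23 and PCDH15, 7 for PCDH18 and PCDH20, 6 for CDH7, 5 for CDH18, 2 for PCDH8 and CDH17, and 1 for CDH5, CDH9, CDH12, CDH20, CDH22 and PCDH10, while CDH6, CDH11, CDH16 and PCDH17 had no count.

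The PCDHB and PCDHG clusters were higher in every arm with an inhibitor. Summed over its 16 genes, PCDHB had 8, 6 and 15 counts in DMSO (0.538, 0.442 and 0.719 CPM), 38, 16 and 40 in AKTi (2.75, 1.12 and 2.78 CPM), 405, 480 and 706 in EZH2i (27.1, 28.0 and 32.4 CPM) and 623, 549 and 498 in the combination (31.5, 31.6 and 30.02 CPM). No AKTi library reached an EZH2i library and no DMSO library reached an AKTi library, while EZH2i and the combination overlapped. The log2 fold change of the PCDHB sum against DMSO was 1.90 ± 0.31 (adjusted p = 4.64e-06) in AKTi, 5.62 ± 0.20 (adjusted p = 2.49e-23) in EZH2i, 49.3-fold, and 5.71 ± 0.20 (adjusted p = 2.74e-24) in the combination. The PCDHB sum in the combination differed from EZH2i alone by 0.09 ± 0.12 (adjusted p = 0.566), and the interaction was -1.81 ± 0.34 (adjusted p = 6.4e-05).

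PCDHG, with 22 genes, started from a higher level. Its sum was 13.4, 13.8 and 14.5 CPM in DMSO, 19.3, 22.7 and 20.6 CPM in AKTi, 43.4, 42.1 and 47.6 CPM in EZH2i and 44.02, 47.3 and 45.3 CPM in the combination. The log2 fold change of the PCDHG sum against DMSO was 0.58 ± 0.10 (adjusted p = 5.18e-06) in AKTi, 1.67 ± 0.09 (adjusted p = 2e-18) in EZH2i and 1.71 ± 0.09 (adjusted p = 3.21e-19) in the combination. PCDHA, with 15 genes, stayed at a few reads, with sums of 1, 4 and 4 counts in DMSO, 7, 10 and 4 in AKTi, 20, 24 and 32 in EZH2i and 23, 38 and 17 in the combination. Its log2 fold change was 2.89 ± 0.55 (adjusted p = 2.09e-05) in EZH2i and 2.95 ± 0.55 (adjusted p = 1.16e-05) in the combination, and 1.40 ± 0.65 (adjusted p = 0.082) in AKTi.

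**Figure D2:**
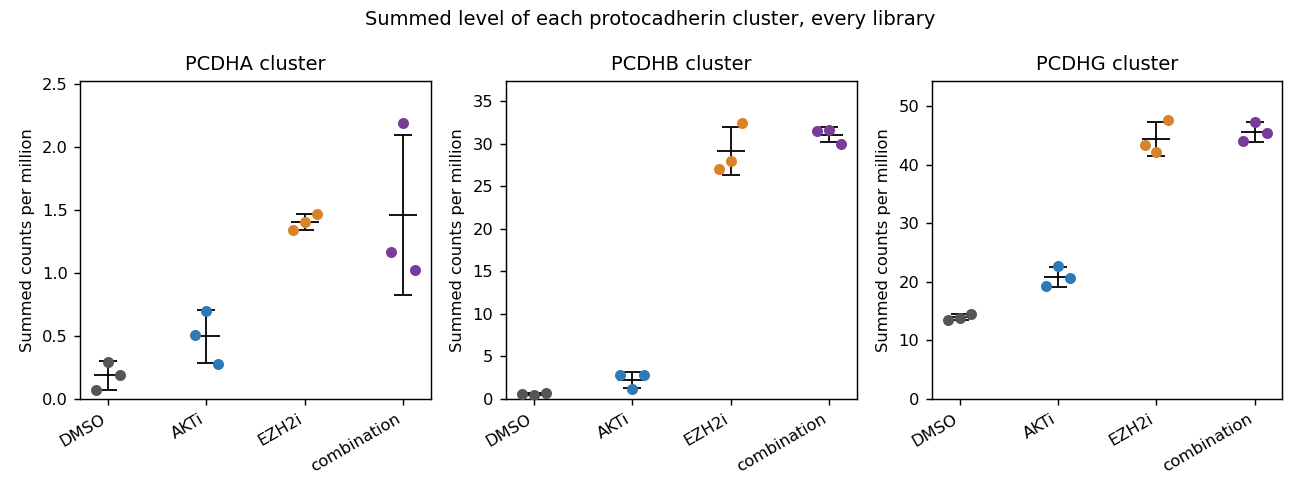
CPM summed over the genes of each protocadherin cluster, with a point for each library and the mean and SD of the 3 libraries of each arm in black, and y axes from 0 that differ between panels. The PCDHB sum lies under 1 in DMSO and at 27.1 to 32.4 in EZH2i, and the EZH2i and combination points overlap in PCDHB and PCDHG.

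Exons of PCDHA genes share a median of 49.5% of their bases with another gene in GENCODE v44, those of PCDHG 43.8%, mainly the constant exons, and those of PCDHB 5.32%. How reads on shared bases were counted is not given in the sources used here. Single genes of PCDHA and PCDHG are therefore less certain than PCDHB genes, which are single-exon genes for the most part. Cluster sums do not depend on how such reads were split within a cluster, but do depend on whether they were counted. Within PCDHB the share was highest in PCDHB2, with 43.9% of its exon bases opposite exons of PCDHB1-AS1, followed by PCDHB16 at 26.1%, PCDHB5 at 14.7% and PCDHB3 at 11.7%. All 10 PCDHB genes and 13 of the 19 PCDHG genes in the main fit passed the filter with no DMSO library over its limit, so calls are counted in the fit of all 34381 genes with at least 1 count. There EZH2i against DMSO called 13 of 16 PCDHB, 17 of 22 PCDHG and 2 of 14 counted PCDHA genes higher and none lower, against 15.8% of all genes called higher and 14.9% lower. The combination against DMSO called 13 of 16, 17 of 22 and 1 of 14 higher and none lower, against 18.9% and 17.4%. By libraries that do not overlap, 14 of 16 PCDHB and 16 of 22 PCDHG genes were higher in EZH2i, and 15 of 16 and 20 of 22 in the combination, against the 19.4% and 23% given above.

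PCDHB5 and PCDHB2 carried the most reads of their cluster over the 12 libraries together. PCDHB5 (ENSG00000113209, chr5:141135218-141138625) had 1, 0 and 4 counts in DMSO, 8, 1 and 5 in AKTi, 126, 161 and 255 in EZH2i and 170, 150 and 108 in the combination, or 8.42, 9.40 and 11.7 CPM in EZH2i. Its log2 fold change against DMSO was 6.51 ± 0.39 in EZH2i (adjusted p = 4.56e-17) and 6.20 ± 0.40 in the combination (adjusted p = 1.6e-16). PCDHB2 (ENSG00000112852, chr5:141094578-141098703) had 4, 2 and 3 counts in DMSO, 4, 4 and 14 in AKTi, 115, 130 and 140 in EZH2i and 150, 157 and 158 in the combination, a change of 5.25 ± 0.35 (adjusted p = 9.51e-16) and 5.52 ± 0.34 (adjusted p = 5.45e-17). In EZH2i PCDHB5 reached 2.89 ± 0.493 RPKM (SD, n = 3), above the 2.42 ± 0.307 RPKM of CDH3, though their libraries are not tested against each other.

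PCDHB8, PCDHB7 and PCDHB13, named with PCDHB5 for their fitted values, were at or near 0 in DMSO, where a fitted value depends on the prior count, so bounds or ratios are given and no order is read from them. PCDHB8 had no count in DMSO, 0, 4 and 0 in AKTi, 17, 15 and 27 in EZH2i and 25, 8 and 32 in the combination, at least 18.0-fold and at least 19.9-fold higher than DMSO. PCDHB7 had no count in DMSO, 0, 0 and 1 in AKTi, 10, 4 and 7 in EZH2i and 16, 11 and 7 in the combination, at least 6.41-fold and at least 10.4-fold higher. PCDHB13 had 1, 0 and 1 counts in DMSO, 9, 0 and 5 in AKTi, 36, 62 and 92 in EZH2i and 46, 41 and 43 in the combination, a ratio of 86.9 (23.7 to 723) in EZH2i and 59.7 (16.2 to 498) in the combination. PCDHB14 had 0, 3 and 0 counts in DMSO, 37, 38 and 66 in EZH2i and 61, 45 and 38 in the combination, a ratio of 43.0 (14.4 to 211) in EZH2i. The ratio of PCDHB3 in EZH2i, over 1 count in DMSO, was 63.1 (10.96 to 2530). PCDHB1, the only one of 14 matched PCDHB promoters without the 9 letters, had 0, 0 and 1 counts in DMSO. It had 0, 0 and 1 counts in EZH2i, the fewest of its cluster, and 2, 2 and 4 in the combination. PCDHB6 and PCDHB11 had no matched promoter. PCDHB9 (1, 0 and 9 counts in EZH2i) and PCDHB12 (5, 2 and 2) were also low and hold the letters. The letters were in 0 of 20 matched PCDHG promoters. PCDHB1 is 1 gene, and whether the letters bear on its level was not tested.

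PCDHGC3, one of the C-type genes at the 3′ end of the cluster, and PCDHGA10 carried the most reads of PCDHG over the 12 libraries together, though PCDHGB5 in EZH2i and PCDHGA8 and PCDHGB5 in the combination had more reads than PCDHGA10. PCDHGC3 (ENSG00000240184, chr5:141475947-141512979) stood at 4.71, 6.34 and 5.65 CPM in DMSO, 7.15, 7.91 and 7.36 CPM in AKTi, 14.3, 14.6 and 14.2 CPM in EZH2i and 6.98, 7.08 and 7.41 CPM in the combination. EZH2i was above every other library and the combination overlapped with AKTi. Its log2 fold change was 0.43 ± 0.15 in AKTi (adjusted p = 0.0214), 1.37 ± 0.14 in EZH2i (adjusted p = 9.42e-11) and 0.36 ± 0.15 in the combination (adjusted p = 0.0272). The difference of the combination from EZH2i was -1.00 ± 0.13 (adjusted p = 8.97e-08), which put it at 0.499 of the EZH2i level, and the interaction was -1.43 ± 0.20 (adjusted p = 8.35e-07). PCDHGA10 stood at 2.49, 2.505 and 2.78 CPM in DMSO, 4.01, 2.74 and 4.9996 CPM in EZH2i and 3.998, 3.91 and 3.01 CPM in the combination, changes of 0.60 ± 0.24 (adjusted p = 0.0272) and 0.49 ± 0.24 (adjusted p = 0.0663) on the log2 scale.

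Some PCDHG genes instead rose from EZH2i alone to the combination. PCDHGA6 stood at 2.14, 2.33 and 1.70 CPM in EZH2i and 3.90, 3.05 and 3.92 CPM in the combination, higher by 0.82 ± 0.31 (adjusted p = 0.0255). PCDHGA7 was higher by 0.95 ± 0.38 (adjusted p = 0.039) and PCDHGA4 by 1.08 ± 0.44 (adjusted p = 0.0404). These 3 calls were lost without EZH2i A, without combination A and without combination C, where the single PCDHG call left was that of PCDHGC3. Of the 22 PCDHG genes, 9 had combination libraries all above the EZH2i libraries and 2 had them all below, against 14.5% and 15.1% of all genes. The share of PCDHG reads on PCDHGC3 was 35.0% to 46.0% in DMSO, 34.9% to 37.1% in AKTi, 29.8% to 34.7% in EZH2i and 14.96% to 16.4% in the combination. Without PCDHGC3, a sum chosen after seeing these values, the other 21 genes exceeded EZH2i in the combination by 0.35 ± 0.09 (adjusted p = 0.00193), where the whole sum gave 0.04 ± 0.08 (adjusted p = 0.742), and the interaction was -0.32 ± 0.15 (adjusted p = 0.115) in place of -0.54 ± 0.12 (adjusted p = 0.000891).

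**Figure D3:**
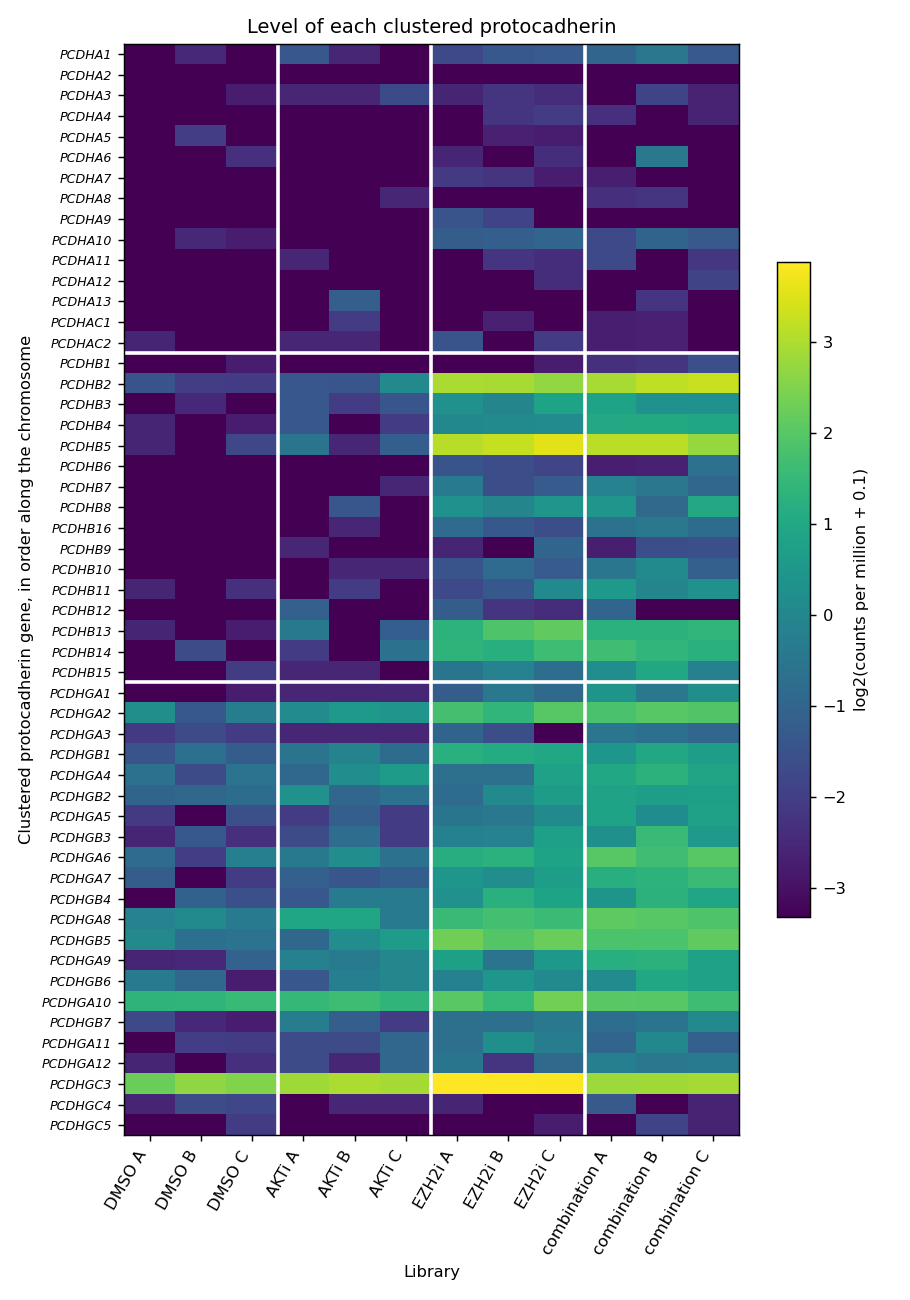
Level of each of the 53 clustered genes in each library as log2(CPM + 0.1), with genes in chromosomal order from PCDHA1 to PCDHGC5 and white lines between arms and clusters. PCDHB2 and PCDHB5 are the brightest PCDHB rows in EZH2i and the combination, and the PCDHGC3 row is brightest in EZH2i and returns to the AKTi level in the combination.

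In PCDHA, PCDHA10 had 0, 1 and 1 counts in DMSO, none in AKTi, 5, 6 and 9 in EZH2i and 4, 7 and 5 in the combination. PCDHA1 had 0, 1 and 0 counts in DMSO, 4, 1 and 0 in AKTi, 3, 5 and 7 in EZH2i and 8, 11 and 5 in the combination. Their ratios to DMSO in EZH2i were 9.15 (2.22 to 80.8) and 13.7 (2.11 to 578). PCDHA1 shares 99.9% of its exon bases with other genes on either strand, so its reads are the least certain of these. PCDHA2 had no count.

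In AKTi alone the PCDHB and PCDHG sums rose, as given above, while calls of single genes were near the share of all genes. In the fit of all genes it called 2 of 16 PCDHB and 1 of 22 PCDHG genes higher and none lower, where 8.91% of all genes were called higher and 9.93% lower. The main fit called PCDHB2, PCDHB3, PCDHB13, PCDHGA9 and PCDHGC3 higher in AKTi, of 10 PCDHB and 19 PCDHG genes tested. In that fit 20.6% of all genes were called higher. The PCDHGC3 values are given above, and its call was lost in the fit of all genes, where PCDHGA9 was the PCDHG gene called. PCDHB3 had 0, 1 and 0 counts in DMSO and 4, 2 and 4 in AKTi, a ratio of 11.6 (1.65 to 503), and PCDHB13 had a ratio of 8.12 (1.86 to 73.6). PCDHGA9 rose from 0.0672, 0.0737 and 0.383 CPM to 0.795, 0.6998 and 0.903 CPM, by 1.98 ± 0.60 (adjusted p = 0.00742). PCDHB2 changed by 1.46 ± 0.56 (adjusted p = 0.0332), with overlapping libraries, and without AKTi C the value was 0.59 (adjusted p = 0.54). Its call was also lost in the fit of all genes. The calls of PCDHB3 and PCDHB13 were lost under 4 and 2 of 17 alternatives, each of which left out 1 library, while the PCDHB sum was called under each of its alternatives.

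**Figure D4:**
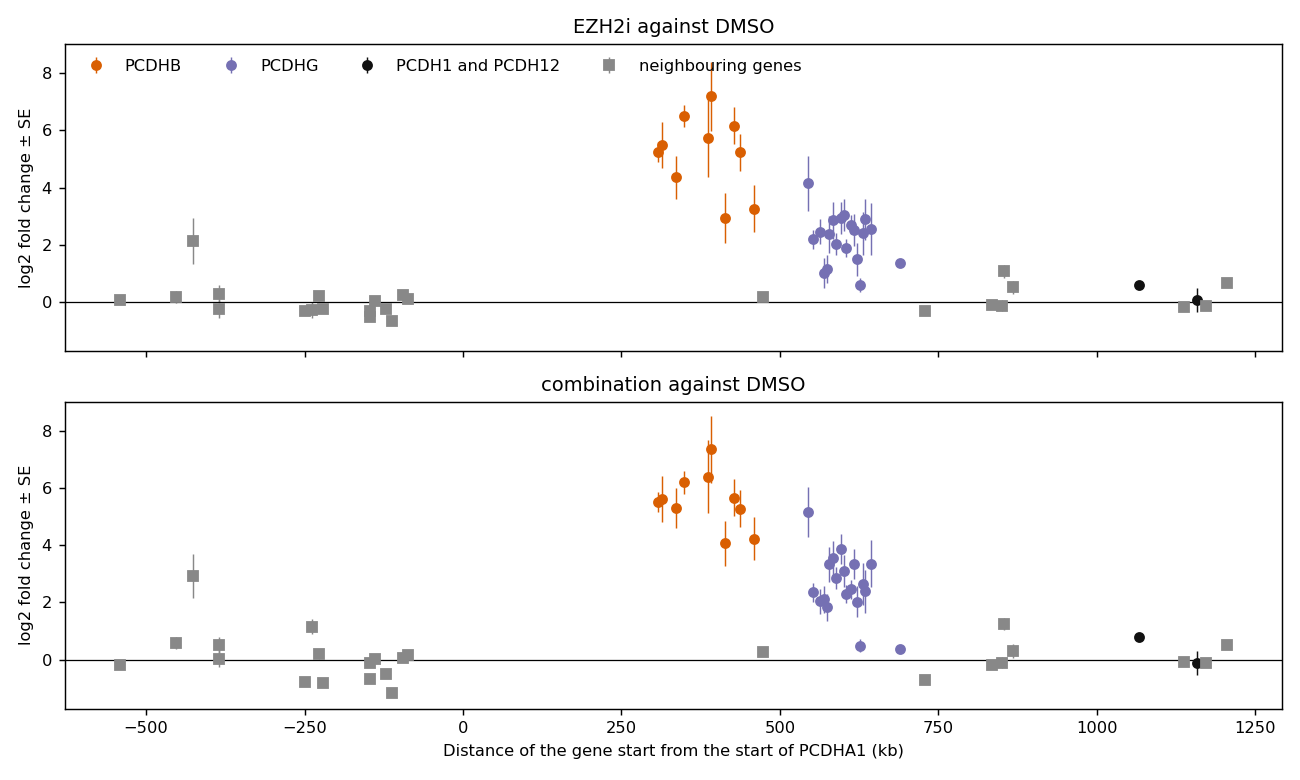
Log2 fold change with its SE of tested genes against the distance of their start from the start of PCDHA1 in kilobases, for EZH2i (top) and the combination (bottom) against DMSO, with PCDHB orange, PCDHG purple, PCDH1 and PCDH12 black and other protein-coding genes grey. Cluster genes lie above 0 in both panels and their neighbours on either side lie mostly within 1 of 0.

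Around the clusters, 29 other protein-coding genes lie within 500 kb, of which 25 were tested. In EZH2i 6 were called higher and 8 lower, against 32.6% and 31.5% of all tested genes, with a median of -0.09 on the log2 scale. In the combination 7 were higher and 8 lower, against 38% and 35.2%, with a median of 0.01. The medians over all tested genes were 0.03 and 0.06. TAF7, a subunit of transcription factor TFIID that lies between PCDHB and PCDHG, had values of 0.16 in EZH2i and 0.27 in the combination. DIAPH1, an actin-nucleating formin next to the 3′ end of PCDHG, fell by 0.30 and 0.70. The largest rises in EZH2i among these 25 were SLC4A9 (2.13), a low-count gene, and FCHSD1 (1.07).

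Compared with EZH2i alone, members outside the clusters differed in both directions. In the main fit 2 were called higher (CDH26 and PCDH1) and 6 lower (CDH1, CDH3, CDH13, CDH24, PCDH7 and PCDH19) of 14 tested, against 21.1% and 25.7% of all genes. By libraries that do not overlap, 3 of 32 were higher and 7 lower, against the 14.5% and 15.1% of all genes given above. The interaction was called for 28.2% of all genes tested and for 4 members. These were PCDH1 and PCDH7 of the 14 tested outside the clusters, PCDHB13 of 10 tested PCDHB genes and PCDHGC3 of 19 tested PCDHG genes. Each of these shares is below that of all genes. However, all 10 PCDHB and 13 of the 19 PCDHG genes had no DMSO library over the limit of the filter. Counts that low leave little power for an interaction, so no result about the members is read from these shares. Against AKTi alone, the PCDHB sum was higher in the combination by 3.81 ± 0.17 (adjusted p = 3.78e-21), and 13 of 16 PCDHB genes were called higher in the fit of all genes, where 15.1% of genes were.

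**Figure D5:**
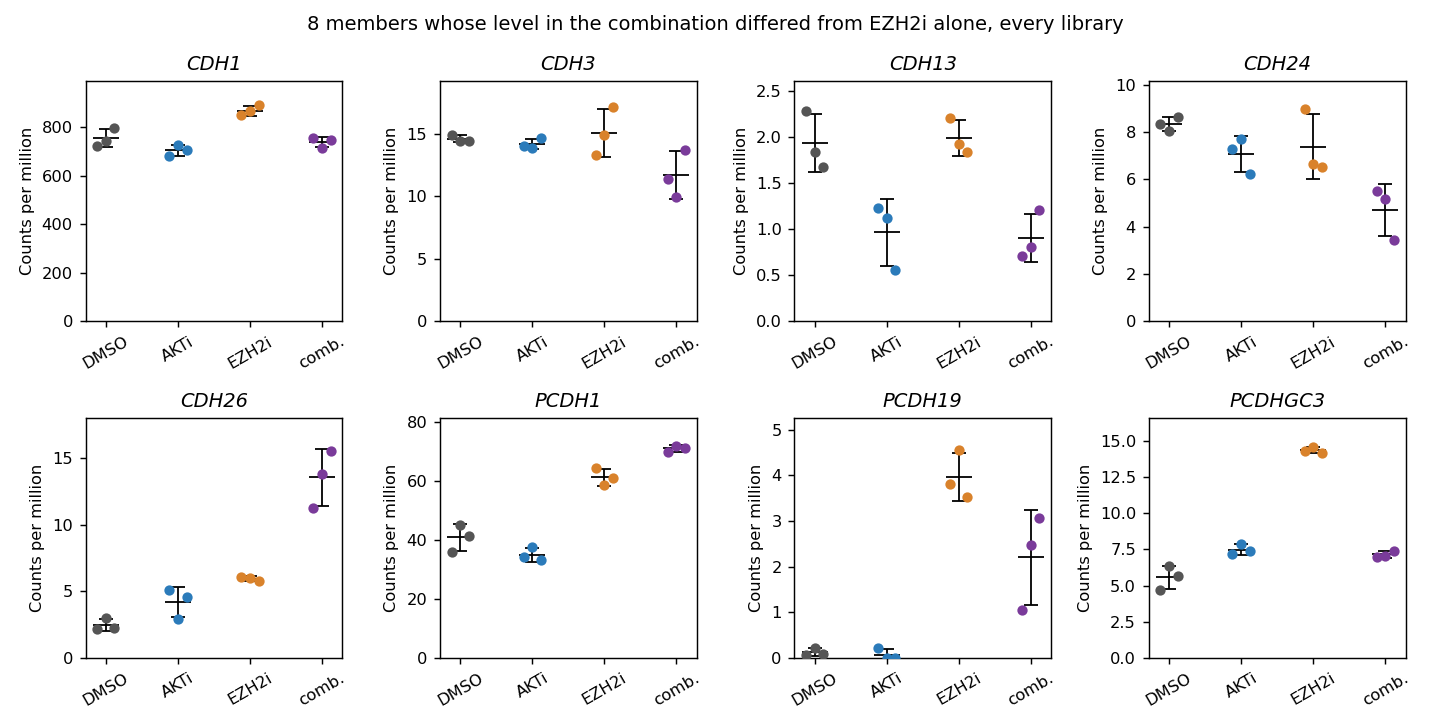
Level in CPM of 8 members called between the combination and EZH2i alone, with a point for each library, the mean and SD of the 3 libraries in black and y axes from 0. CDH26 and PCDH1 are highest in the combination, the other 6 are lower there than in EZH2i, and CDH13 is low in both arms with ipatasertib.

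Partners of cadherins were counted from lists of known genes, to be read against all tested genes, of which 32.6% rose and 31.5% fell in EZH2i, 38% rose and 35.2% fell in the combination, and 20.6% rose and 21.9% fell in AKTi. Of 11 catenins and junction partners, 10 were tested, and 8 rose and 1 fell in EZH2i, 8 rose and 2 fell in the combination, and 5 rose and 2 fell in AKTi. CTNNA1 (alpha-catenin) rose by 0.63 ± 0.05 in EZH2i (adjusted p = 9.2e-13) and CTNNB1 (beta-catenin) by 0.55 ± 0.05 (adjusted p = 5.4e-12). The largest changes of the list in the combination were CTNNA2 (3.63 ± 0.37) and CTNND2 (3.37 ± 0.66), neural catenins that were under 1 CPM in DMSO. Of 12 tested genes for large and related cadherins, 7 rose and 3 fell in EZH2i and 7 rose and 2 fell in the combination, led by CLSTN2 (6.09 ± 0.41), a calsyntenin of synapses, and FAT1 (1.92 ± 0.06), a giant cadherin. In AKTi 6 of these 12 rose and 0 fell. Of 7 tested desmosomal genes, 3 rose and 1 fell in EZH2i and 3 rose and 3 fell in the combination, where DSP (desmoplakin) was at 2.30 ± 0.06 and DSG1 at -2.33 ± 0.62. In AKTi 5 of these 7 rose and 0 fell.

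The 9 listed regulators of cluster promoters were all tested, and 2 rose and 5 fell in EZH2i, 2 rose and 6 fell in the combination and 0 rose and 5 fell in AKTi, against the shares of all tested genes just given. CTCF, which binds the conserved sequence element, had values of -0.07 ± 0.06 in EZH2i (adjusted p = 0.357) and -0.07 ± 0.06 in the combination (adjusted p = 0.313). The cohesin subunits SMC1A (-1.28 ± 0.06) and RAD21 (-0.99 ± 0.05) had the largest changes of the list in the combination. SMCHD1, a repressor of these clusters in other cells, fell by 0.63 in EZH2i (adjusted p = 2.49e-10) and by 0.52 in the combination. Of the 5 listed repressors of CDH1, SNAI1 fell, with values of -1.06 ± 0.31 in EZH2i (adjusted p = 0.00332) and -1.99 ± 0.34 in the combination (adjusted p = 2.9e-06), and ZEB1 and ZEB2 were too low to test. Of the 3 tested, 1 rose and 1 fell in EZH2i and 2 rose and 1 fell in the combination. The 2 that rose in the combination were TWIST1 and SNAI2. TWIST1, at 0.0737 CPM in DMSO, rose by 2.84 ± 0.88 in EZH2i (adjusted p = 0.00508). SNAI2 was at 1.31 ± 0.61 in EZH2i (adjusted p = 0.059) and rose by 1.53 ± 0.60 in the combination (adjusted p = 0.0221). Any part of these changes in the levels of cadherins was not tested.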

How the data were processed

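The deposited counts are whole reads per gene, with a column per library. The authors made them by aligning to hg38 with STAR and counting with HTSeq. Tool versions, annotation release, stranding option and the rule for reads on shared exons are not given in the sources used here. The deposited gene length, in bases, was the divisor of RPKM. A table of DESeq2-normalized values was not used. Genes were filtered with filterByExpr (minimum count 10, minimum total 15), scaled with TMM and tested with edgeR 4.0.16 quasi-likelihood in R 4.3.3, with 1 mean per arm over all 12 libraries; SE is the log2 fold change divided by the root of F. Cluster sums were fitted the same way in place of their genes. A fold against an arm with no count was taken against 3 counts over its 3 libraries, and ratios to 1 to 3 counts carry 95% exact binomial intervals, which cover counting error only. Libraries do not overlap where all 3 CPM of an arm exceed all 3 of the other. Alternatives were DESeq2 1.42.0, other scalings, other filters, pairwise fits, a replicate block and leaving out each library. The members and lists were chosen with earlier results of these data known. Named genes were every tested member outside the clusters, the 4 largest rises and falls per comparison with DMSO, and the 2 members with most reads per cluster; the 2 largest changes in the combination were named per list, and further genes, such as FAT1 and DSG1 or DSP, by that rule or after their values were seen. Exon sharing was read from GENCODE v44, and fits were tested on simulated data.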

Additional observations from a re-analysis of the deposited data

Results flagged for a closer look

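The interaction of the arms, which is the change in the combination minus the changes in AKTi and in EZH2i, was past the threshold for 4 members and for the sums of both larger clusters. It was past the threshold for 28.2% of all genes tested, and the members tested were 14 outside the clusters, 10 of PCDHB and 19 of PCDHG. PCDHGC3 had the strongest call, -1.43 (adjusted p = 8.35e-07), and the call held under 18 of 18 alternatives, from -1.49 to -1.34. PCDH1 had 0.44 (adjusted p = 0.0017), with 0.39 to 0.52 over 18 alternatives, all called. PCDHB13 had -3.32 (adjusted p = 0.0119), which rests on 9, 0 and 5 counts in AKTi and 1, 0 and 1 in DMSO, and was not called without AKTi A (adjusted p = 0.134). PCDH7 had -0.64 (adjusted p = 0.0358) and was not called under 8 of 18 alternatives, 7 of which left out a library.

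The summed PCDHB cluster had an interaction of -1.81 (adjusted p = 6.4e-05) and the summed PCDHG cluster one of -0.54 (adjusted p = 0.000891), and both were called under every alternative fit of the whole sum. Without PCDHGC3, an alternative chosen after seeing the data, the PCDHG value was -0.32 (adjusted p = 0.115). On this scale a sum that both inhibitors raise separately, and that is no higher with both than with EZH2i alone, gives a negative interaction.

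Genes annotated as cluster pseudogenes lie outside the rule. The 6 listed had 2 counts in the DMSO libraries together and 1 in AKTi, against 44 in EZH2i and 43 in the combination. PCDHB18P took 24 and 25 of these, with none in DMSO, and PCDHB19P took 8 and 6. PCDHB17P had 9 counts in EZH2i and none in the other arms.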

How the results depend on the processing

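DESeq2, the other scalings and pairwise fits left the counts of called members within 1.5 times the values reported, except that pairwise fits called 2 clustered genes in place of 5 in AKTi against DMSO. With at least 1 count per gene in total, 3 clustered genes were called there and 1 member outside the clusters had an interaction. Requiring 10 counts in every library left 3 clustered genes to test, of which 2 were called with AKTi, 3 with EZH2i and 3 with both against DMSO, 1 in the combination against AKTi, 1 against EZH2i and 1 in the interaction, and it called 4 members outside the clusters in place of 9 in the combination. Fewer genes tested is how that setting is built.

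Leaving out each library in turn gave, outside the clusters, 1 to 3 calls in AKTi against DMSO (1 without AKTi C), 5 to 9 in the combination against EZH2i (5 without EZH2i B) and 1 to 2 in the interaction. Within the clusters it gave 1 to 4 calls in the combination against EZH2i (1 without EZH2i A, combination A or combination C, 2 without EZH2i B or combination B) and 1 to 4 in the interaction (4 without DMSO B or DMSO C, 1 without AKTi A). The medians of single tested genes were 0.86 for PCDHG in AKTi, 5.37 for PCDHB in EZH2i and 2.40 and 2.46 for PCDHG in EZH2i and the combination, against sums of 0.58, 5.62, 1.67 and 1.71, and leave out genes that failed the filter. Scaling by library size alone moved the median of all genes to 0.17 in EZH2i and 0.26 in the combination. Every summed-cluster value against DMSO kept its direction and its side of the threshold in each alternative fit. Leaving PCDHGC3 out of the PCDHG sum, chosen after seeing the data, brought the combination past the threshold against EZH2i (0.35, adjusted p = 0.00193) and lost the interaction (-0.32, adjusted p = 0.115).

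With the replicate letter as a block, 28 clustered genes were called in EZH2i against DMSO, as without it, and no count of called members moved by more than 1. Same-letter libraries did not deviate together: 18 correlations of deviations from arm means ran from -0.06 to 0.07, so the letters were not taken as a pairing.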
